A study of Mus musculus with 10 samples.

Results

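*Tppp3* and 9 related genes were followed in regenerating mouse muscle. They are 2 tubulin polymerization promoting genes, *Tppp* and *Tppp3*, 6 beta-tubulin genes, *Tubb2a*, *Tubb2b*, *Tubb3*, *Tubb4b*, *Tubb5* and *Tubb6*, and 2 alpha-tubulin genes, *Tuba1a* and *Tuba8*. They were chosen by name, because *Tppp3* had a small p between the genotypes among the sarcomeric genes of interest and the others share its pathway. All 10 were among the 25700 genes counted in every mouse, and all 10 passed the filter on low counts that left 14410 genes to test.

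The tibialis anterior (TA) muscle of C57BL/6 males aged 12 weeks was injured by cardiotoxin (CTX) and taken at day 6, when new fibers are forming, to ask which genes change without miR-501. The 5 control mice are titled Pax7Cre and carry the genotype label wild type. The 5 others are titled miR-501KO, with the genotype label miR-501 -/-, and the design text gives them the same Pax7Cre together with a floxed X-linked miR-501 allele (miR-501fl/Y). In both groups Cre is thus driven by *Pax7*, a gene of muscle stem cells, so that the deletion would lie in these cells and in what they form, while the sequenced RNA came from the whole muscle. Neither *Mir501* nor its neighbor *Mir362* was among the genes counted, so the deletion could not be checked in these counts.

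Tubulin is the subunit of microtubules and pairs 1 alpha with 1 beta chain. Mammals encode several isotypes of each chain that differ mainly at the carboxy terminus, where enzymes and motors act on the filament. TPPP proteins bind and bundle microtubules and promote their assembly. In muscle, dividing myoblasts rebuild a spindle at each division, and differentiating cells rearrange microtubules into arrays along the long axis and around the nuclei of the fiber. *Tppp3* is also known as a marker of cells of the tendon sheath, and *Tppp* is known from myelinating glia. For this reason tendon and Schwann cell genes were measured beside both.

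Beta-tubulin isotypes are known to differ most in their last codons. These ends are shown so that the isotypes can be compared there, and *Tubb2a* and *Tubb2b* are close to alike at this end too. The end of *Tubb6* is not shown here. The capitals mark the stop codon. The last 60 coding bases were read from GRCm38 with *Tubb2a* at chr13:34074468-34074527 on the minus strand, *Tubb2b* at chr13:34127471-34127530 on the minus strand, *Tubb3* at chr8:123421623-123421682 on the plus strand, *Tubb4b* at chr2:25222308-25222367 on the minus strand and *Tubb5* at chr17:35834982-35835041 on the minus strand.
Tubb2a: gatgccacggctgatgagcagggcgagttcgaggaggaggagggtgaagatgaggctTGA
Tubb2b: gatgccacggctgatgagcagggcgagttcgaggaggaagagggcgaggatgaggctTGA
Tubb3: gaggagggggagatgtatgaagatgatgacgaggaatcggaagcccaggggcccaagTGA
Tubb4b: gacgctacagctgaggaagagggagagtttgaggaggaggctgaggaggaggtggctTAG
Tubb5: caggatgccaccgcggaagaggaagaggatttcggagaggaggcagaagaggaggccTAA

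The coding sequences of *Tubb2a* and *Tubb2b* were identical at 96.5% of aligned bases, and the other pairs of beta-tubulin genes at 80.2% to 85.7%. *Tppp* and *Tppp3* shared 55.1% and *Tuba1a* and *Tuba8* 78.8%. Reads were 100 bases long, so a stretch of 100 bases present in another transcript cannot be assigned by sequence alone. Such windows made up 36.9% of the *Tubb2a* transcript, 27.7% of *Tubb2b*, 30.6% of *Tubb4b*, 65.8% of *Tuba1a* and 12.5% of *Tuba8*, and 0% of *Tppp*, *Tppp3*, *Tubb3*, *Tubb5* and *Tubb6*. The longest identical run of *Tubb2a* and *Tubb2b* spanned 551 coding bases, and its first 100 bases are shown as an example of a read that both genes would yield. In *Tubb2a* it lies at chr13:34075097-34075196 and in *Tubb2b* at chr13:34128100-34128199, both on the minus strand of GRCm38.
Tubb2a and Tubb2b: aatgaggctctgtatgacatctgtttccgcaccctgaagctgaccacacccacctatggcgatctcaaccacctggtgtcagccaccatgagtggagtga

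How the counting treated such reads is not given in the sources used here, so the counts of *Tubb2a*, *Tubb2b*, *Tubb4b*, *Tuba1a* and *Tuba8* are uncertain to that extent. Exons of *Tubb4b* also overlap those of *Fam166a* on the other strand. The libraries mark the strand, but the strand setting of the counting is not given either.

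The miRNA deleted in the second group is shown with its seed, bases 2 to 8, in capitals, since a target would carry the complement of these bases, GGTGCAT, in its 3′ UTR. Mature miR-501-3p lies at chrX:7241270-7241291 on the minus strand of GRCm38.p6, and the sequence is that of RefSeq.
mmu-miR-501-3p: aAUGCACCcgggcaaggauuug

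None of the 10 genes had such a site in an annotated 3′ UTR, against 6.48% of 20974 counted genes with a 3′ UTR. The absence of these letters says nothing of indirect effects.

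Each library held 18609222 to 24753258 counts on genes. Counts were scaled to counts per 1e+06 counts (CPM) with TMM factors, which make libraries of unequal composition comparable. Markers of mature fibers were present in all muscles, with 24 of 24 genes passing the filter and a sum of 18680 to 48480 CPM in Pax7Cre and 26970 to 36610 CPM in miR-501KO mice. Those of young fibers had 16 of 16 genes and 7124 to 9818 CPM. Pax7Cre mouse 2 stood apart. On the first principal component, which held 33% of the variance, it lay at 43.9, while the other 9 mice lay between -27.5 (Pax7Cre mouse 4) and 16.9 (miR-501KO mouse 4). Several of the results were therefore also computed without it.

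The genotypes were compared first. No gene of the 14410 reached an adjusted p under 0.05 with edgeR's quasi-likelihood test and Benjamini-Hochberg adjustment, and DESeq2 also called 0. At an unadjusted p under 0.05 stood 151 genes (1.05%), 55 higher (0.382%) and 96 lower in miR-501KO mice. This count was 453 without Pax7Cre mouse 2, 470 without Pax7Cre mouse 4 and 98 without miR-501KO mouse 1, and 132 to 192 without any other single mouse. Since this contrast led to the choice of *Tppp3*, the values of the 10 genes in it are a description, with no test. All 10 had a log2 difference above 0, with a median of 0.17, against 47.9% of all genes above 0 and a median of -0.0042. With Pax7Cre mouse 2 left out, 7 of the 10 were above 0, with a median of 0.07, against 48.8% and -0.0029 over all genes. In none of the 10 were the genotypes apart, which was the case for 20 genes of all tested (0.139%).

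*Tppp3* lies at chr8:105467493-105471526 on the minus strand of GRCm38 and overlaps no other annotated gene. It was measured at 58.0, 83.1, 51.1, 50.8 and 52.4 CPM in Pax7Cre mice 1 to 5. In miR-501KO mice 1 to 5 it was measured at 87.5, 73.0, 65.3, 92.7 and 67.1 CPM. Pax7Cre mouse 2 lay among the miR-501KO muscles, and the other 4 controls lay below them, between 50.8 and 58.0 CPM. Mouse 2 was set aside here after its value was seen, in the contrast that led to the choice of *Tppp3*. The gap is thus no support for a difference. Of the miR-501KO mice, 2 (mouse 1 and mouse 4) exceeded every control. The means were 59.1 ± 13.7 CPM (SD, n = 5) and 77.1 ± 12.3 CPM (SD, n = 5), a log2 difference of 0.38 with a standard error (SE) of 0.15. It was 0.54 without Pax7Cre mouse 2 and 0.31 without miR-501KO mouse 4, the ends of its range when each mouse was left out, and 0.35 with the mature fiber score described further on in the model.

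*Tppp*, the relative expressed in glia, at chr13:74009407-74035753 on the plus strand, was far lower. It was measured at 5.64, 11.3, 5.34, 3.65 and 5.44 CPM in Pax7Cre mice 1 to 5. The miR-501KO mice had 6.00, 6.23, 4.33, 9.48 and 5.85 CPM. Pax7Cre mouse 2 and miR-501KO mouse 4 were the highest of their groups, and the means of 6.27 ± 2.92 and 6.38 ± 1.89 CPM (SD, n = 5 each) gave a log2 difference of 0.03 (SE 0.28). It was 0.34 without Pax7Cre mouse 2 and -0.15 without miR-501KO mouse 4.

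*Tuba8*, an alpha-tubulin of striated muscle, testis and brain, at chr6:121210696-121226854 on the plus strand, varied most. Pax7Cre mice 1 to 5 had 24.8, 93.2, 10.99, 7.14 and 25.1 CPM. The miR-501KO mice had 33.3, 44.0, 17.1, 77.9 and 30.05 CPM. The highest muscle exceeded the lowest 13.1-fold, and the same animals as for *Tppp* led each group. The log2 difference was 0.33 (SE 0.59), but it ranged from -0.04 without miR-501KO mouse 4 to 1.24 without Pax7Cre mouse 2.

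*Tubb3*, the beta-tubulin best known from neurons, was lowest in Pax7Cre mouse 2, in which *Tuba8* was highest. It was measured at 13.0, 3.32, 5.55, 15.6 and 8.72 CPM in Pax7Cre mice 1 to 5. In miR-501KO mice it stayed between 9.79 and 11.8 CPM. The controls thus spanned a 4.71-fold range around the 1.21-fold range of the miR-501KO mice, with Pax7Cre mouse 2 lowest and mouse 4 highest. The log2 difference was 0.20 (SE 0.31), and it was -0.01 without Pax7Cre mouse 2 and 0.48 without Pax7Cre mouse 4.

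*Tubb6*, an isotype that rises in injured and dystrophic muscle, had the same lowest and highest muscle. Pax7Cre mice 1 to 5 had 335, 203, 282, 420 and 340.3 CPM. The miR-501KO mice had 393, 379, 321, 377 and 352 CPM. The controls again spanned the wider range. The log2 difference was 0.21 (SE 0.16), and it was 0.08 without Pax7Cre mouse 2 and 0.33 without Pax7Cre mouse 4.

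The other 5 genes overlapped between the genotypes as well. *Tubb5*, the broadly expressed beta-tubulin of dividing cells, ranged from 298 to 536 CPM over the 10 muscles. *Tuba1a*, the alpha-tubulin of developing neurons and of many embryonic tissues, ranged from 193 to 362 CPM, and *Tubb2a* from 80.8 to 139 CPM. *Tubb2b* ranged from 59.9 to 104 CPM, and all 4 had Pax7Cre mouse 2 lowest and Pax7Cre mouse 4 highest. *Tubb4b*, an isotype of cilia and of most cell types, ranged from 72.5 to 113 CPM with miR-501KO mouse 4 highest, and mouse 2 was the highest control. Their log2 differences were 0.05 (*Tubb5*, SE 0.13), 0.14 (*Tuba1a*, SE 0.14), 0.16 (*Tubb2a*, SE 0.13), 0.09 (*Tubb2b*, SE 0.13) and 0.18 (*Tubb4b*, SE 0.10). They were -0.05 (*Tubb5*), 0.02 (*Tuba1a*), 0.06 (*Tubb2a*), -0.02 (*Tubb2b*) and 0.24 (*Tubb4b*) without Pax7Cre mouse 2. With Pax7Cre mouse 4 left out instead they were 0.16, 0.24, 0.25, 0.17 and 0.19 in the same order.

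**Figure D1:**
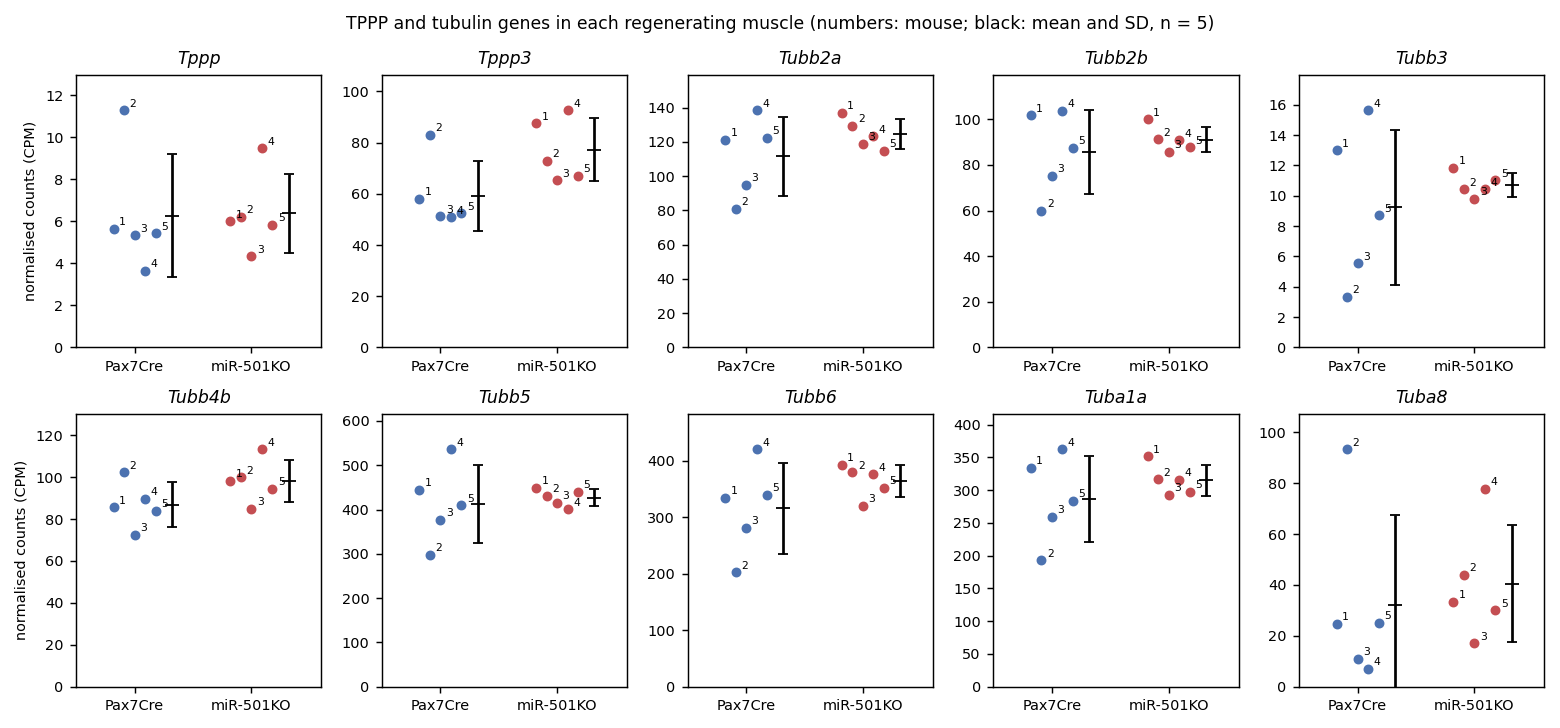
Normalised counts (CPM, linear axis from 0) of each of the 10 genes in the 5 Pax7Cre and 5 miR-501KO mice, with the mouse number beside each point and the mean and SD in black (for *Tuba8* in Pax7Cre mice the SD bar runs below 0 and is clipped there). Pax7Cre mouse 2 is highest of its group for *Tppp*, *Tppp3*, *Tubb4b* and *Tuba8* and lowest for the other 6 genes.

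Levels of different genes were compared per kilobase (kb) of merged exons, since a longer transcript yields more reads. *Tuba1a* was the most abundant, at 167 ± 27.2 CPM per kb (SD, n = 10), followed by *Tubb6* at 140 ± 25.5 and *Tubb5* at 126 ± 18.1 CPM per kb. *Tubb2a* followed at 73.4 ± 11.2, *Tubb4b* at 44.3 ± 5.53 and *Tubb2b* at 38.5 ± 5.72 CPM per kb. *Tppp3* came at rank 7 of the order with 36.9 ± 8.40 CPM per kb, and below it *Tuba8* had 16.1 ± 12.5, *Tubb3* 5.34 ± 1.89 and *Tppp* 1.24 ± 0.454 CPM per kb. Injured muscle thus held *Tppp3* RNA at the level of a minor beta-tubulin and far more of it than of *Tppp*.

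Of the 9 neighboring pairs in this order, 8 differed by an exact two-sided sign-flip permutation test over the 10 mice, with adjusted p of 0.0044 to 0.026 over the pairs. The test measures spread between mice only. Errors of length or of read assignment that all mice share do not enter it, and the order was taken from the same counts. *Tubb2b* and *Tppp3* did not differ beyond their spread, with a log2 ratio of 0.08 ± 0.43 (SD), *Tubb2b* above in 7 of 10 mice, and an exact p of 0.566. *Tppp3* exceeded *Tuba8* in 10 of 10 mice, and *Tubb3* exceeded *Tppp* in 9 of 10. When the longest transcript gave the length, *Tubb6* came before *Tuba1a* and *Tppp3* before *Tubb2b*, and 7 pairs differed. Without Pax7Cre mouse 2 or miR-501KO mouse 2, 4 or 5 the order was the same and 6 pairs differed, and without Pax7Cre mouse 4 *Tppp3* came before *Tubb2b*.

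**Figure D2:**
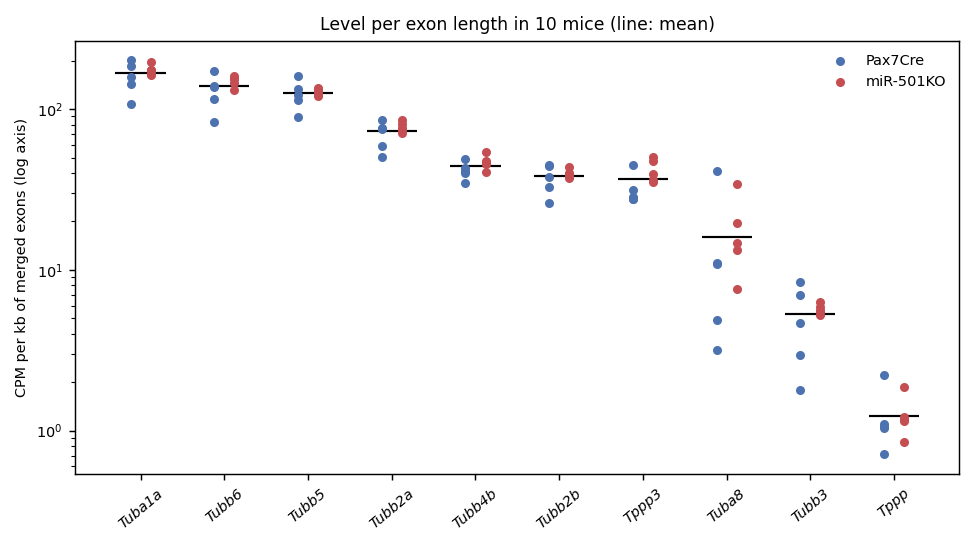
CPM per kb of merged exons on a log axis for the 10 genes in each of the 10 mice, in order of the mean (black line). *Tuba1a*, *Tubb6* and *Tubb5* lead with means of 126 or more, and *Tppp* is lowest with 1.24.

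Among all beta-tubulin genes, *Tubb6* made up 32.4% ± 1.92 (SD, n = 10) of the CPM per kb and *Tubb5* 29.5% ± 1.51. *Tubb2a* made up 17.1% ± 0.627, *Tubb4b* 10.5% ± 2.22, *Tubb2b* 8.99% ± 0.430 and *Tubb3* 1.21% ± 0.313. The other measured isotypes were marginal, *Tubb4a* of myelin and brain with 0.231% ± 0.0758 and *Tubb1* of platelets with 0.0278% ± 0.0258. *Tubb4b* ranged from 8.32% in Pax7Cre mouse 4 to 12.0% in miR-501KO mouse 4 and 16.3% in Pax7Cre mouse 2, which also had the lowest shares of *Tubb6*, 27.6%, and of *Tubb3*, 0.591%. The highest share of *Tubb3*, 1.62%, was that of Pax7Cre mouse 4. With the longest transcript as length, *Tubb6* took 36.3%, *Tubb2a* 13.8% and *Tubb2b* 7.64%.

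Among all alpha-tubulin genes, *Tuba1a* made up 56.6% ± 9.45 (SD, n = 10) and *Tuba4a*, an isotype of mature muscle whose gene does not encode the final tyrosine, 24.6% ± 8.03. *Tuba1b* had 10.3% ± 1.83, *Tuba8* 5.17% ± 3.68 and *Tuba1c* 3.28% ± 0.608. In Pax7Cre mouse 2, *Tuba4a* with 41.9% exceeded *Tuba1a* with 35.3%, and *Tuba8* took 13.6%. In Pax7Cre mouse 4 *Tuba1a* took 66.4% and *Tuba8* 1.04%. The share of *Tuba1a* is uncertain, since 65.8% of its 100-base windows occur in other transcripts, those of *Tuba1c* and *Tuba1b* among them.

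**Figure D3:**
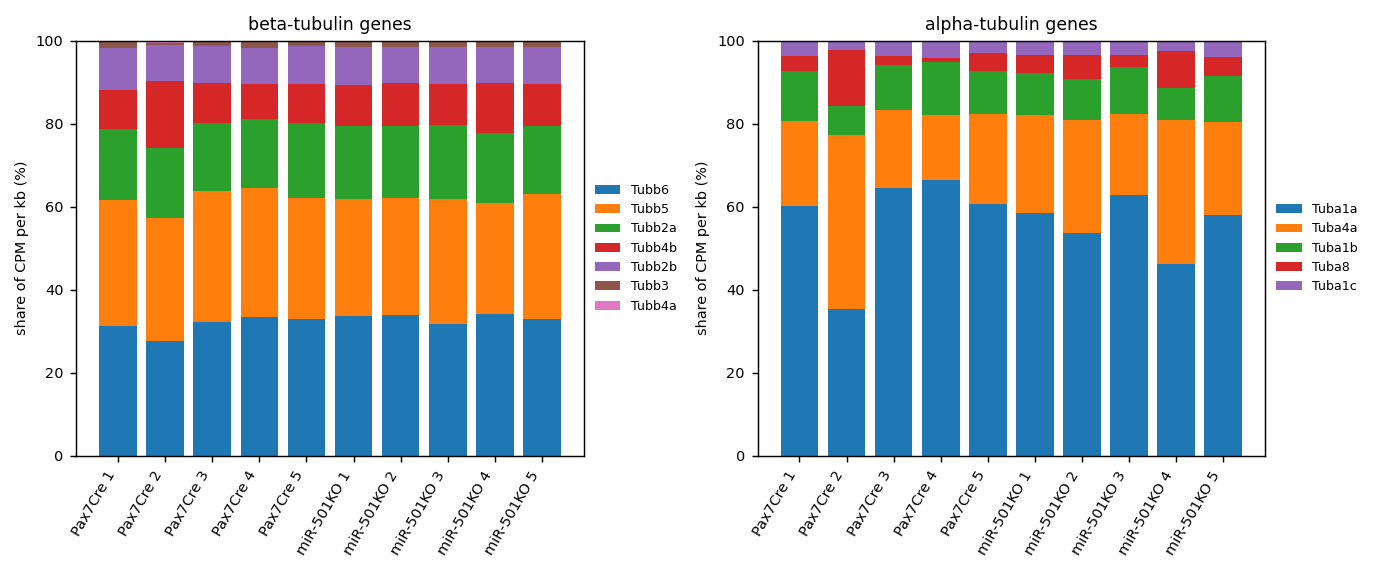
Share (%) of each isotype in the CPM per kb of all beta-tubulin genes (left) and all alpha-tubulin genes (right), one bar per mouse, with isotypes under 0.1% on average left out. *Tubb6* ranges from 27.6% to 34.2% of beta-tubulin, and *Tuba1a* from 35.3% to 66.4% of alpha-tubulin.

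The order of animals was next set against the state of the muscle, which did not enter the choice of genes. A mature fiber score was taken as the mean log2 CPM of 24 genes of adult fibers outside the sarcomere, each centered on its mean. The score was 0.80 in Pax7Cre mouse 2, 0.42 in miR-501KO mouse 4 and -0.61 in Pax7Cre mouse 4, and -0.32 to 0.11 in the other 7 mice. Slopes were fitted for every gene with genotype in the model, so that they rest on differences between animals of one genotype. A slope is the log2 change for a score higher by 1. In bulk RNA, fewer cells of a type and less RNA per cell cannot be told apart.

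Across all 10 mice, 9 of the 10 genes had a slope with an adjusted p under 0.05, against 17.1% of all genes (11.1% upwards and 6.01% downwards). Of these, 3 rose with the score. *Tuba8* had the steepest slope at 2.42 (SE 0.33, adjusted p = 3.71e-04 in edgeR), *Tppp* had 1.10 (SE 0.19, adjusted p = 0.0015) and *Tppp3* 0.49 (SE 0.13, adjusted p = 0.021). The other 6 fell with it, *Tubb3* with -1.16 (SE 0.32), *Tubb6* with -0.56 (SE 0.15), *Tuba1a* with -0.52 (SE 0.13), *Tubb5* with -0.48 (SE 0.11), *Tubb2b* with -0.45 and *Tubb2a* with -0.42 (both SE 0.13), at adjusted p of 0.011 to 0.040. *Tubb4b* had 0.23 (SE 0.11), with an adjusted p of 0.18.

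The calls depended on which animals were included. Without Pax7Cre mouse 2, which holds the highest score, none of the 10 genes passed and 83 genes of all did. The directions were then as before, with slopes of 2.39 for *Tuba8*, 1.07 for *Tppp* and 0.25 for *Tppp3*, while *Tubb3* had -0.61 and *Tubb6* -0.27, at adjusted p of 0.14 to 0.89 over the 10 genes. Without Pax7Cre mouse 4, the lowest, *Tuba8*, *Tppp* and *Tppp3* passed, against 12.7% of all genes, and the 6 falling tubulins did not, at adjusted p of 0.065 to 0.16. Their slopes were then -0.93 to -0.35, against -1.16 to -0.42 in all mice. *Tppp3* had an adjusted p of 0.061 without miR-501KO mouse 4, with a slope of 0.45, and *Tubb2a* had 0.051 to 0.061 without miR-501KO mouse 1, 2, 3 or 5, with slopes of -0.44 to -0.41. Both slopes were thus close to those in all mice. With both Pax7Cre mice 2 and 4 left out, no gene of the 10 passed, against 0.871% of all genes. *Tuba8* then had a slope of 2.04 and *Tppp* of 0.97, and *Tubb3* had 0.16.

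**Figure D4:**
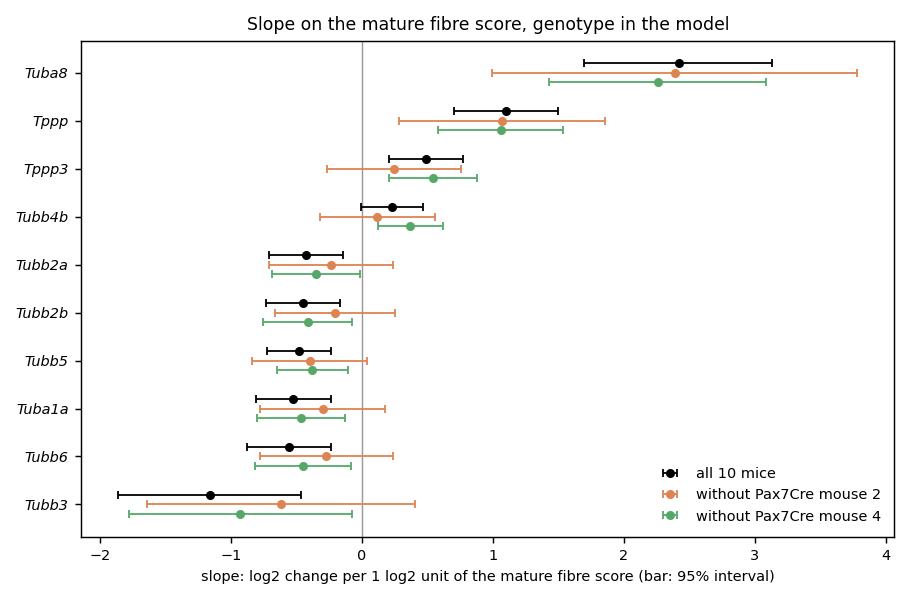
Slope of each gene on the mature fiber score (log2 per log2 unit) with its 95% interval, for all 10 mice and without Pax7Cre mouse 2 or mouse 4. The estimates for *Tuba8* and *Tppp* stay above 0 with their whole interval in all 3 fits, while those of the falling tubulins reach across 0 without mouse 2.

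**Figure D5:**
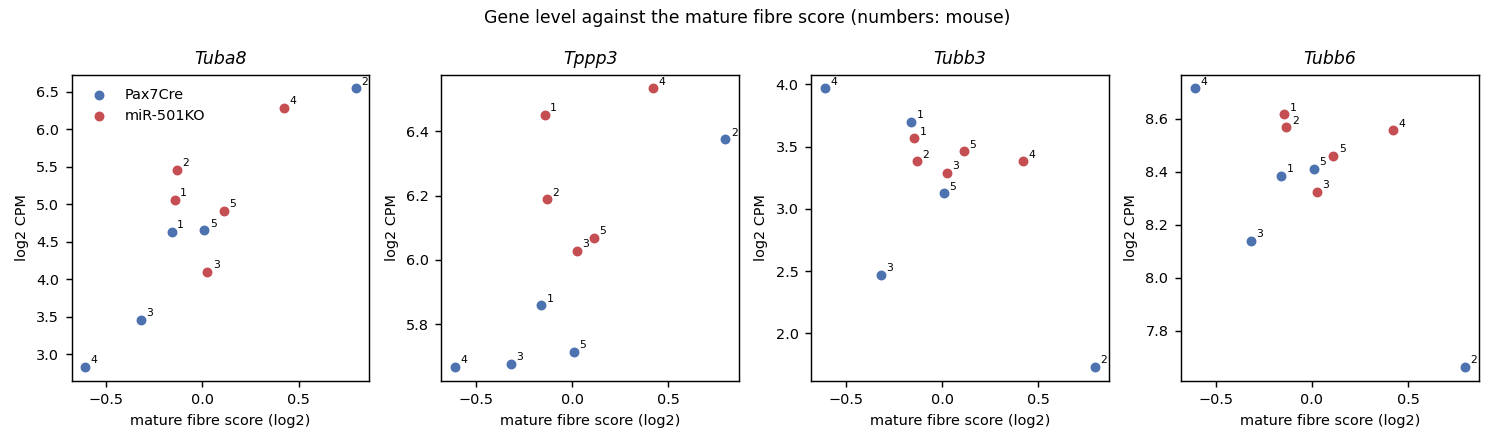
Log2 CPM of *Tuba8*, *Tppp3*, *Tubb3* and *Tubb6* against the mature fiber score (log2), one numbered point per mouse. *Tuba8* rises from Pax7Cre mouse 4 at 7.14 CPM to Pax7Cre mouse 2 at 93.2 CPM, while for *Tubb3* and *Tubb6* Pax7Cre mouse 2 is the lowest point.

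Scores of young fibers and of proliferation were close to mirror images of the mature score, with correlations within genotype of -0.91 each over the 10 mice, which share their libraries. On the score of young fibers (*Myog*, *Myh3* and 14 others), 6 of the 10 genes rose and 3 fell, against 19.6% of all genes called (7.90% upwards and 11.7% downwards). The 6 were *Tubb2a*, *Tubb2b*, *Tubb3*, *Tubb5*, *Tubb6* and *Tuba1a*, with slopes of 1.10 to 2.97, and *Tppp3* fell with -1.06 (SE 0.29, adjusted p = 0.023 in edgeR). On the proliferation score the same 6 rose and *Tppp* and *Tuba8* fell, against 10.9% of all genes (3.82% upwards and 7.06% downwards). *Tppp3* had -0.63 (SE 0.24) with an adjusted p of 0.12. Without Pax7Cre mouse 2 neither score had a call among the 10 genes. Of all genes, 2.43% were then called on the young fiber score and 0% on the proliferation score. *Tppp3* had -0.52 and 0.09 on these scores in that fit. Without Pax7Cre mouse 4, 7 were called on the young fiber score, against 7.38% of all genes, and 4 on the proliferation score, against 4.98%. With the mature fiber score added to either model, or the proliferation score to that of mature fibers, none was called, against at most 1.12% of all genes, and the part of each score cannot be told apart. With the proliferation score in the model, the mature fiber slopes of *Tuba8*, *Tppp* and *Tppp3* were 2.52, 1.22 and 0.76, no smaller than without it, at adjusted p of 0.309 to 0.469 in edgeR. Those of the 6 falling tubulins were then -0.13 to 0.39.

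On the tendon score, 4 of the 10 genes fell and 0 rose, against 2.52% of all genes called (0.479% upwards and 2.04% downwards). *Tppp3*, the tendon sheath marker, had a slope of -0.95 (SE 0.20, adjusted p = 0.031 in edgeR), and *Tuba8*, *Tppp* and *Tubb4b* had -4.05, -1.70 and -0.66. All 9 tendon genes were detected. Only 3 of the 9 were themselves called on the tendon score, and all 9 had slopes above 0. Their sum was 1397 to 1851 CPM in Pax7Cre and 1471 to 1975 CPM in miR-501KO mice. The tendon score had a correlation of -0.77 with that of mature fibers. Without Pax7Cre mouse 2 none of the 10 was called, against 0% of all genes, and *Tppp3* had -0.67. With the mature fiber score in the model none of the 10 was called either, against 0.0139% of all genes. Between 1 and 4 of them were called when another mouse was left out, against 0.827% to 6.22% of all genes. *Tppp3* had an adjusted p of 0.052 to 0.10 without Pax7Cre mouse 1 or miR-501KO mouse 2, 3 or 4, with slopes of -0.95 to -0.92 that were close to that in all mice. On the Schwann cell score 2 rose, *Tppp* and *Tuba8*, and 3 fell, *Tubb2a*, *Tubb3* and *Tubb5*, against 8.26% of all genes (5.34% upwards and 2.91% downwards). The 12 Schwann cell genes summed to 39.7 to 71.6 CPM in Pax7Cre and 45.7 to 64.4 CPM in miR-501KO mice, and none was without a read. Their part in the level of *Tppp* was not tested. The score rested on the 10 Schwann cell genes that passed the filter. Only 3 of these were themselves called on it, and 8 had slopes above 0. Without Pax7Cre mouse 2, 4 or 5 or miR-501KO mouse 2 or 4 none of the tubulin and TPPP genes was called, against at most 0.00689% of all genes. Without miR-501KO mouse 3, 8 of them were called, against 11.1% of all genes. *Tppp3* had a slope of 0.81 (SE 0.26, adjusted p = 0.070 in edgeR) on it, and 0.39 without Pax7Cre mouse 2. The number of tubulin and TPPP genes called also changed with the method, with 9 by DESeq2's Wald test, which called 13.7% of all genes. It was 0 without a filter on low counts or with the mature fiber score in the model, against 0.00504% and 0% of all genes. Markers of ciliated cells summed to at most 5.07 CPM in any muscle.

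The genes split into the same sets when compared with each other, as correlations of log2 CPM centered within genotype over the 10 mice. *Tubb2b* and *Tuba1a* had r = 0.99, and the 15 pairs among *Tubb2a*, *Tubb2b*, *Tubb3*, *Tubb5*, *Tubb6* and *Tuba1a* had r of 0.91 to 0.99. *Tppp*, *Tppp3* and *Tuba8* had r of 0.86 to 0.96 with one another. *Tppp3* had r = -0.51 with *Tubb6*, which was 0.33 without Pax7Cre mouse 2. Without this mouse *Tppp3* had r of -0.07 to 0.42 with the 6 tubulins and *Tppp* had r of -0.53 to -0.10. Within both sets r was then 0.79 to 0.97 and 0.68 to 0.90. *Tubb4b* had r = 0.80 with *Tppp3* and -0.12 with *Tubb6*, and 0.67 and 0.78 without that mouse.

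Among 11487 genes at 5 CPM or more on average, the ones most like *Tppp3* in this measure were *Aldh1a1* (r = 0.953), *Maob* (0.953), *Pdp1* (0.952), *Paip2b* (0.945) and *Cltb* (0.944). *Aldh1a1* encodes a retinaldehyde dehydrogenase, *Maob* a monoamine oxidase and *Pdp1* a phosphatase that activates pyruvate dehydrogenase. The most opposed were *Egfl6* (-0.964), *Lix1l* (-0.963) and *Morc2a* (-0.958). Without Pax7Cre mouse 2 the 5 had r of 0.858 to 0.903 and the 3 had r of -0.912 to -0.892.

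Promoters of *Tuba8* and *Tubb5* are shown as examples of genes that ran in opposite directions. Each runs from 250 bases before to 50 bases after the start of the gene in RefSeq on GRCm38.p6, and such a sequence was found for 7 of the 10 genes, all but *Tppp3*, *Tubb2b* and *Tubb6*. Capitals mark matches to the TATA box TATAAA, to the motif CCAAT, to the E-boxes CAGCTG and also CACGTG, or to the nuclear receptor motif AAGGTCA, on either strand, which did not overlap each other there. The *Tuba8* promoter lies at chr6:121210484-121210783 on the plus strand and that of *Tubb5* at chr17:35838252-35838551 on the minus strand.
Tuba8: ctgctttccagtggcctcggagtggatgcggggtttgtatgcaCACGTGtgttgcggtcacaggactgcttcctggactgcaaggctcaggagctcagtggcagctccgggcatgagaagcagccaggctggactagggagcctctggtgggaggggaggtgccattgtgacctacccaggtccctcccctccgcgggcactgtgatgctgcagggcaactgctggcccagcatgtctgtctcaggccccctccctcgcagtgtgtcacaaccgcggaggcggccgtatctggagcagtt
Tubb5: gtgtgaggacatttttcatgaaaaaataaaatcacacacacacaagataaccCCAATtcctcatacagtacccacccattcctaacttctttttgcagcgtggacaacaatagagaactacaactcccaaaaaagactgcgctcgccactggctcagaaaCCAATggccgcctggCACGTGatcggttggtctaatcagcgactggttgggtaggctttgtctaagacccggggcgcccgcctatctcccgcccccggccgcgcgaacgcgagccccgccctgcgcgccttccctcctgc

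Both held CACGTG, an E-box, which was in none of the other 5 promoters and which 7.15% of 32851 promoters of the same length held. CCAAT was found in *Tubb3*, *Tubb4b*, *Tubb5* and *Tuba1a*, 4 of 7, against 37.4% of all, and TATAAA in *Tubb2a* and *Tubb4b*, against 13.6%. CAGCTG, the E-box form that myogenic factors prefer, and AAGGTCA, a motif of nuclear receptors, were in none of the 7, against 16.3% and 4.72%. These are matches of letters in a short window and not bound sites.

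Other genes of the pathway were set against the mature fiber score in the same fit, in which 17.1% of all genes were called (11.1% upwards and 6.01% downwards). In the fit without Pax7Cre mouse 2, which called 0.572% of all genes, 1 gene of the pathway lists described here passed, *Mapt*, which encodes tau and is named after its value was seen. Of 13 other tubulin genes, 8 passed the filter, and 1 rose and 2 fell. *Tuba4a* rose with a slope of 1.10 (SE 0.23, adjusted p = 0.0053 in edgeR), and *Tuba1b* and *Tuba1c*, the alpha-tubulins of dividing cells, fell with -0.52 (SE 0.15) and -0.55 (SE 0.16). *Tubg1*, which nucleates microtubules, had -0.0014 (SE 0.13). *Tppp2*, the third gene of the TPPP family, had at most 3 counts in a mouse and was not tested.

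Of 21 genes for folding of tubulin, 1 rose and none fell. *Tbca* and *Tbce*, cofactors that assemble the dimer, had slopes of 0.06 (SE 0.15) and 0.16 (SE 0.18), and *Ttc5*, which adjusts tubulin RNA to free tubulin, -0.08 (SE 0.10). Of 19 genes that modify tubulin, 3 rose and 2 fell. The detyrosinating pair *Vash2* and *Svbp* had -0.31 (SE 0.11) and -0.33 (SE 0.15), the ligase *Ttl* that returns tyrosine -0.20 (SE 0.11), the acetyltransferase *Atat1* -0.46 (SE 0.15) and the deacetylase *Hdac6* -0.21 (SE 0.10). None of these 5 passed, at adjusted p of 0.052 to 0.24.

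Of 37 regulators of microtubules, 5 rose and 4 fell. *Stmn1*, which sequesters tubulin dimers and marks immature cells, fell with -0.61 (SE 0.12, adjusted p = 0.0046 in edgeR), and had -0.36 without Pax7Cre mouse 2. *Map4*, the main microtubule-associated protein of muscle, had 0.17 (SE 0.11), and *Map1b*, known from growing neurites, -0.41 (SE 0.17). The plus-end proteins *Mapre1* and *Mapre3* had -0.18 (SE 0.10) and 0.38 (SE 0.13), and none of these 4 passed. *Map1b* had -0.23, *Mapre1* 0.02 and *Ttl* -0.02 without Pax7Cre mouse 2, and *Tbca* and *Tbce* had 0.15 and 0.05. Between the genotypes none of the tested genes of these lists had an unadjusted p under 0.05.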

How the data were processed

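RNA of whole TA muscle from 10 mice was sequenced as stranded 100-base single-end libraries. The authors deposited raw counts per gene and mouse, without normalization. Per the labels' processing notes, STAR, featureCounts and R 3.5.1 were used on GRCm38.p5, and the strand and multi-mapping settings are not given in the sources used here. Genes were named through GENCODE M21 on GRCm38, with 25664 of 25700 matched. Mice of a genotype differed by more than counting noise (lowest chi-square per degree of freedom 9.47), and the labels number them 1 to 5 in each group but name no pairs. Totals of 18609222 to 24753258 counts limit precision for genes with few reads.

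edgeR 4.0.16 in R 4.3.3 computed TMM factors, filtered genes with filterByExpr (minimum count 10, minimum total count 15) and ran quasi-likelihood tests of genotype and of each marker score with genotype in the model, with Benjamini-Hochberg adjustment over 14410 genes at a threshold of 0.05. The log2 CPM used a prior count of 2. Scores were means over fixed marker lists of log2 CPM centered per gene. In simulated data with 200 of 14410 genes changed by a log2 of 1, 95.5% were recovered for genotype and 91% for the mature fiber slope, with 8.17% and 5.21% false calls. Recovery of smaller differences, such as those of the 10 genes between the genotypes (log2 of 0.03 to 0.38), was not tested. Levels per kb used merged exons, with sign-flip tests in scipy 1.17.1. Windows, identities and motifs were computed with Biopython 1.88.

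The 10 genes and all lists were chosen with earlier results of these data known. Named outside the 10 are 20 genes fixed by name, and the 5 genes with the highest and 3 with the lowest (most negative) correlation with *Tppp3*. Also named, after their values were seen, are *Ttll7*, *Agbl1*, *Mapt* and *Kif2c*. Alternatives were DESeq2 1.42.0 (size factors, Wald test), other filters, a replicate block, leaving out mice, models without genotype or with a second score, and another length. The mature fiber score in the genotype model, alpha-tubulin shares, and leaving out Pax7Cre mice 2 and 4 together were added after seeing the data. No sequences of proteins were used here, and no antagomir or single cell data.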

Additional observations from a re-analysis of the deposited data

Results flagged for a closer look

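In the 10 genes, 3 values stood far from the other 4 mice of their group, with a gap to the nearest mouse of over 0.71 of the group's range. All 3 belonged to Pax7Cre mouse 2. In it *Tppp* was measured at 11.3 CPM against 3.65 to 5.64 CPM in the other controls, *Tppp3* at 83.1 CPM against 50.8 to 58.0 CPM, and *Tuba8* at 93.2 CPM against 7.14 to 25.1 CPM. Of 20 groups examined, chance alone would mark about 1. The same muscle had the highest mature fiber score, 0.80.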

How the results depend on the processing

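The genotype contrast called 0 genes under every alternative run for it. At an unadjusted p under 0.05 it had 151 genes, against 312 without a filter, 480 with the mature fiber score in the model and 531 with Pax7Cre mice 2 and 4 left out together. Leaving out 1 mouse gave 83 to 2958 called genes for the mature fiber score, 352 to 3292 for young fibers, 0 to 2202 for proliferation, 0 to 901 for tendon and 0 to 1680 for Schwann cells, against 2465, 2827, 1567, 363 and 1190. The lowest count came without Pax7Cre mouse 2, and for Schwann cells it was also 0 without Pax7Cre mouse 4 or 5 or miR-501KO mouse 2, and 1 without miR-501KO mouse 4. With Pax7Cre mice 2 and 4 left out together the counts were 127, 0, 18, 24 and 0, and with a second score in the model (proliferation beside mature fibers, mature fibers beside the others) 22, 161, 0, 2 and 0. The tendon count was also 871 with DESeq2's Wald test, 1407 with the replicate block and 571 without genotype in the model, and that of Schwann cells 1 without a filter, 673 with at least 10 counts in every mouse, 1971 with DESeq2's test and 4 with the replicate block. Mice of the same replicate number in the 2 groups had correlations of -0.305 to 0.337, and those of different numbers -0.261 to 0.453. Whether the numbers stand for a pairing cannot be told from so few values. The block called 2353 genes (16.3%) for the mature fiber score and 9 of the 10 genes. It called *Tppp3* on the proliferation score, with -1.06. On the tendon score it called 5 of the 10 genes, 2 rising and 3 falling, on that of Schwann cells 0 and on proliferation 6 (9.86% of all genes), against 4, 5 and 8. Without genotype in the model, 5 of the 10 genes were called on the mature fiber score, against 16.6% of all genes, and the 4 no longer called had slopes of -0.972 (*Tubb3*), -0.47 (*Tubb6*), -0.408 (*Tubb2b*) and -0.368 (*Tubb2a*). In this model 8 of the 10 were called on the young fiber score, against 21.3% of all genes, and *Tppp3* was no longer among them. On the tendon score 3 were called, against 3.96% of all genes.

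Without Pax7Cre mice 2 and 4, mature fiber slopes turned to 0.0293 (*Tubb2a*), 0.161 (*Tubb3*) and 0.107 (*Tubb6*), and with a second score to 0.149 (*Tubb2b*), 0.392 (*Tubb3*) and 0.0763 (*Tuba1a*), while those of *Tuba8*, *Tppp*, *Tppp3* and *Tubb4b* were 2.52, 1.22, 0.757 and 0.447. The proliferation slope of *Tppp3* was -0.749 to 0.0859 when 1 mouse was left out, 0.463 with a second score and 0.287 without both mice. The cause was not tested. Shares by the longest transcript were 13.8% (*Tubb2a*), 7.64% (*Tubb2b*) and 36.3% (*Tubb6*). With 5 mice a group, genotype differences of the 10 genes had SEs of 0.099 to 0.59 on the log2 scale.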

Other observations

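Among the genes that modify or regulate microtubules, *Ttll7*, a polyglutamylase, had the steepest rise for its error with the mature fiber score, 0.93 (SE 0.11). *Agbl1*, of the deglutamylase family, had 1.47 (SE 0.22), and *Mapt*, which encodes tau, 1.35 (SE 0.19). *Kif2c*, a kinesin that shortens microtubules in mitosis, fell with -0.95 (SE 0.13). These 4 were picked after their values were seen, and all 10 mice were used. Without Pax7Cre mouse 2 the slopes were 0.81 (*Ttll7*), 1.40 (*Agbl1*), 1.82 (*Mapt*) and -0.92 (*Kif2c*), and of the 4 only *Mapt* passed, with an adjusted p of 0.034 in edgeR.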
